A study of Xenopus laevis x Xenopus muelleri with 6 samples.

Results

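Genes for tubulins, kinesins, cytoplasmic dynein and their close partners were examined in the testis of hybrid frogs. Members were the probe sets with exactly 1 gene symbol whose symbol names a tubulin, a tubulin cofactor, a kinesin, a cytoplasmic dynein or dynactin subunit, or 1 of a short set of microtubule regulators. This gave 62 probe sets for 55 gene symbols, out of 11485 probe sets in all, of which 6798 carried exactly 1 symbol. The rule reads the symbols and no measured value, though it was written with earlier results of these data known. The testes came from sexually mature animals with a Xenopus laevis mother (Cape of South Africa) and a Xenopus muelleri father (Swaziland). Of the 6 Affymetrix arrays, 3 held testis of sex-reversed animals and 3 held normal testis, with 1 RNA sample per array. The sources used here give neither the animals' ages nor their genetic sex, nor how sex was reversed. Samples within a group are labelled as biological replicates, without saying that each was a separate animal, so a p-value covers only the spread among these samples.

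Microtubules are hollow polymers of alpha and beta tubulin that grow from gamma tubulin complexes and are remodelled by plus-end proteins, stathmins and severing enzymes. Most kinesins walk toward the plus end, while cytoplasmic dynein, with its cofactor dynactin, walks toward the minus end. In the testis these proteins build the spindles of mitosis and meiosis, shape the spermatid head through the manchette and form the core of the sperm tail. X. laevis is an ancient tetraploid that keeps many genes as an L and an S copy. Values are log2 units, so a difference of 1 is 2-fold. Each probe set has its own binding strength, so its value ranks its brightness among probe sets and not the amount of one RNA against another. Tubulin genes are much alike in their coding sequence, and the probes were designed on X. laevis, so signal from related tubulins and weaker binding of X. muelleri alleles cannot be told apart from expression here.

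The arrays were alike in scale, with medians of 5.25 to 5.31 and pairwise Pearson correlations across probe sets of 0.939 to 0.959. The germ line genes ddx4.L, an RNA helicase, and dazl.L, an RNA-binding protein, were bright on every array, with mean log2 values of 12.53 and 11.92. They were the brightest of the germ cell markers, measured for 12 of 21 listed genes, and 8 of 14 probe sets lay above the median level. Another of these markers, ddx25.L, varied widely, with 6.26, 6.01 and 8.74 on sex-reversed arrays and 8.65, 3.85 and 8.98 on normal arrays. Its range over the arrays lay at percentile 99.8 of all probe sets. The spermatid and sperm genes meig1.S, odf3.L, odf3.S and ropn1l.L lay near the floor, at mean levels of 3.13, 3.10, 2.67 and 3.05. The sperm tail gene spag6.L of the same list was bright, at 8.78. The 11 probe sets of the axonemal dynein and sperm tail list below, which also holds spag6.L, had a median level of 7.87. Sertoli cell markers were measured for 5 of 9 listed genes, and 2 of their 8 probe sets lay above the median level. Markers of neurons and nerve, which include the member tubb3.L, were measured for 6 of 14 listed genes. Of their 8 probe sets, 1 lay above the median level. Smooth muscle and peritubular markers, measured for 6 of 7 listed genes, averaged 8.45 to 8.85 on sex-reversed arrays and 7.97 to 8.28 on normal arrays. Of their 9 probe sets 8 had higher means in sex-reversed testis and 1 lower, each with groups that overlapped. The Sertoli cell markers lay the other way, averaging 4.31 to 4.54 on sex-reversed arrays and 4.55 to 4.79 on normal arrays. The part of these cell types in the differences below was not tested. In whole testis, fewer cells of a type and less RNA per cell cannot be told apart.

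No tubulin, kinesin or dynein probe set passed the test between sex-reversed and normal testis. In limma, with p-values adjusted over all 11485 probe sets, 0 of 62 members had an adjusted p under 0.05, where 0% of all probe sets did. The smallest adjusted p among the members was 0.997. Group means were higher in sex-reversed testis for 31 members and lower for 31, beside 51.3% of all probe sets higher. The median difference was -0.01 over the members and 0.01 over all probe sets. Both values lay close to those of all probe sets and so describe nothing particular to these genes. At an unadjusted p under 0.05 there were 0 members higher and 1 lower, where 2.26% and 2.16% of all probe sets were counted. All 3 sex-reversed arrays lay above all 3 normal ones for 2 members (background 5.37%), and below them for 3 members (background 4.26%). Group means lay 2-fold or more apart for 1 member that was higher, tubb4b.S (background 1.09%), and for 1 that was lower, the first of the dynll1.S probe sets (background 1.47%).

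The size of change that these arrays leave possible can be read from the 95% intervals of the differences. For 45 of 62 members (72.6%) the interval lay within 2-fold in either direction, where 62.5% of all probe sets did. Within 1.5-fold it lay for 4 members, 6.45% beside a background of 8.69%, namely tbce.L, kif11.S, kif2a.S and the second dynll1.S probe set. Over the members the interval's half-width had a median of 0.63, equal to 1.55-fold. Of the 8 members below the 25th percentile of level, 7 were among those within 2-fold and kif11.S was among those within 1.5-fold. Near the floor a narrow interval bounds the signal and not the expression of the gene. Among the 54 brighter members the interval lay within 2-fold for 38 and within 1.5-fold for 3.

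**Figure D1:**
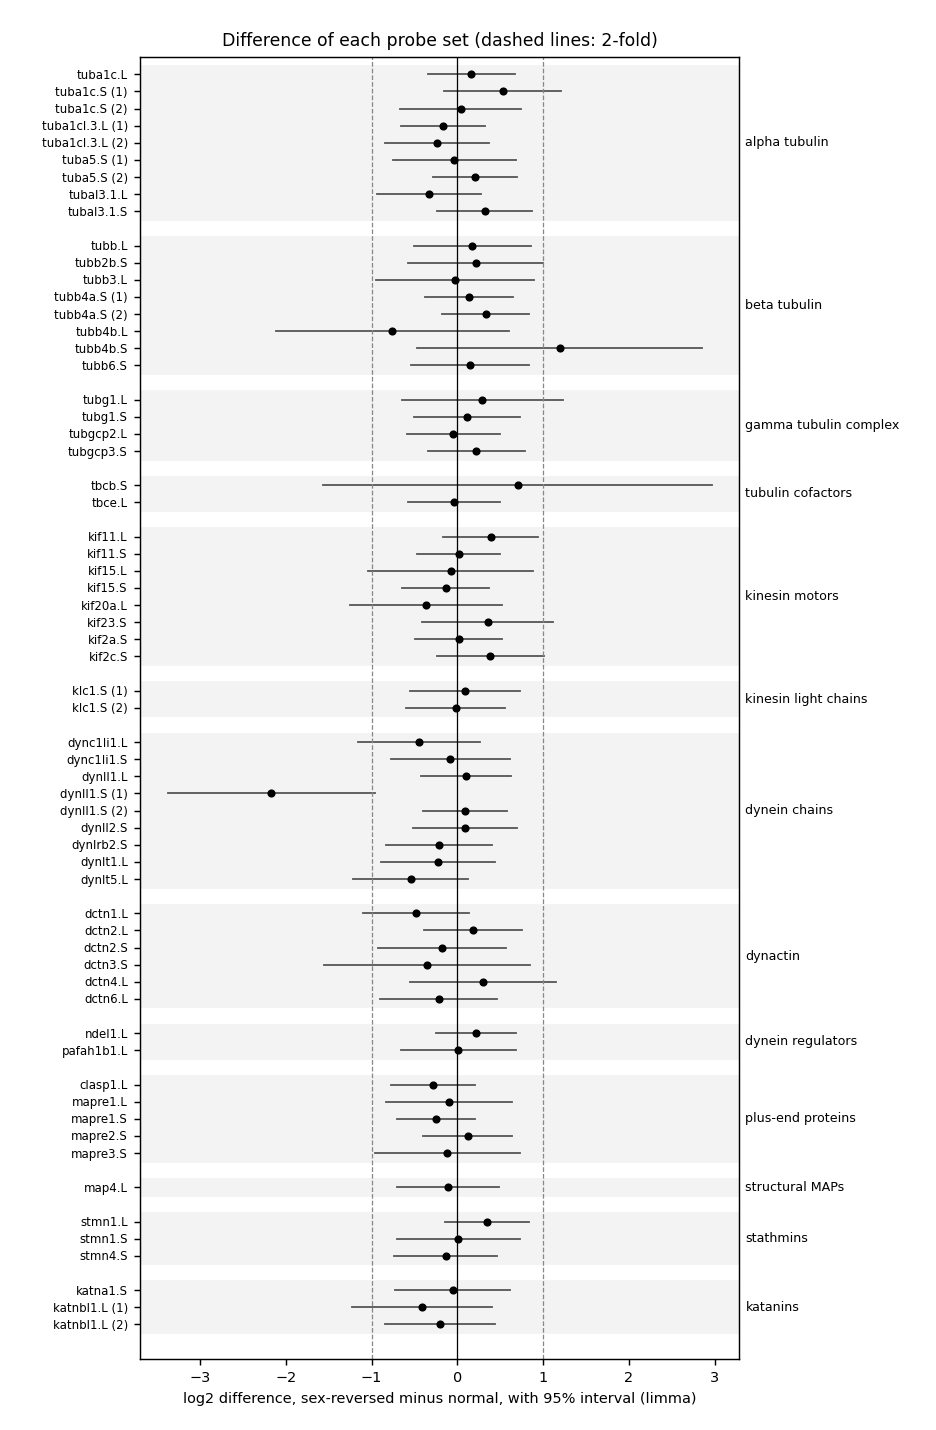
Log2 difference (sex-reversed minus normal testis) of each of the 62 probe sets, grouped by class, with its 95% interval from limma (n = 3 arrays per group); dashed lines mark 2-fold, and numbers in brackets tell apart probe sets of 1 symbol. The first dynll1.S probe set, at -2.17, stands apart from the other members, while tubb4b.L, tubb4b.S and tbcb.S have the wide intervals.

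As a set, the members were bright in hybrid testis. Of the 62 probe sets, 47 lay above the median probe set, 34 (54.8%) above the 75th percentile and 23 (37.1%) above the 90th. The members' median level was 7.37, beside 5.25 over all probe sets. All probe sets include 4577 without a symbol, and the level of those with 1 symbol was not computed. The lists of other microtubule genes described below had median levels of 7.89, 7.87, 7.24, 7.23 and 5.70. Such a level is therefore not particular to the members. Another 8 members lay below the 25th percentile, where signal is close to the lowest values of the arrays and small differences carry little information. The spread between testes was ordinary. The median standard deviation within groups was 0.33 for the members and 0.34 over all probe sets, and 30 of 62 members lay above the median of all probe sets.

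**Figure D2:**
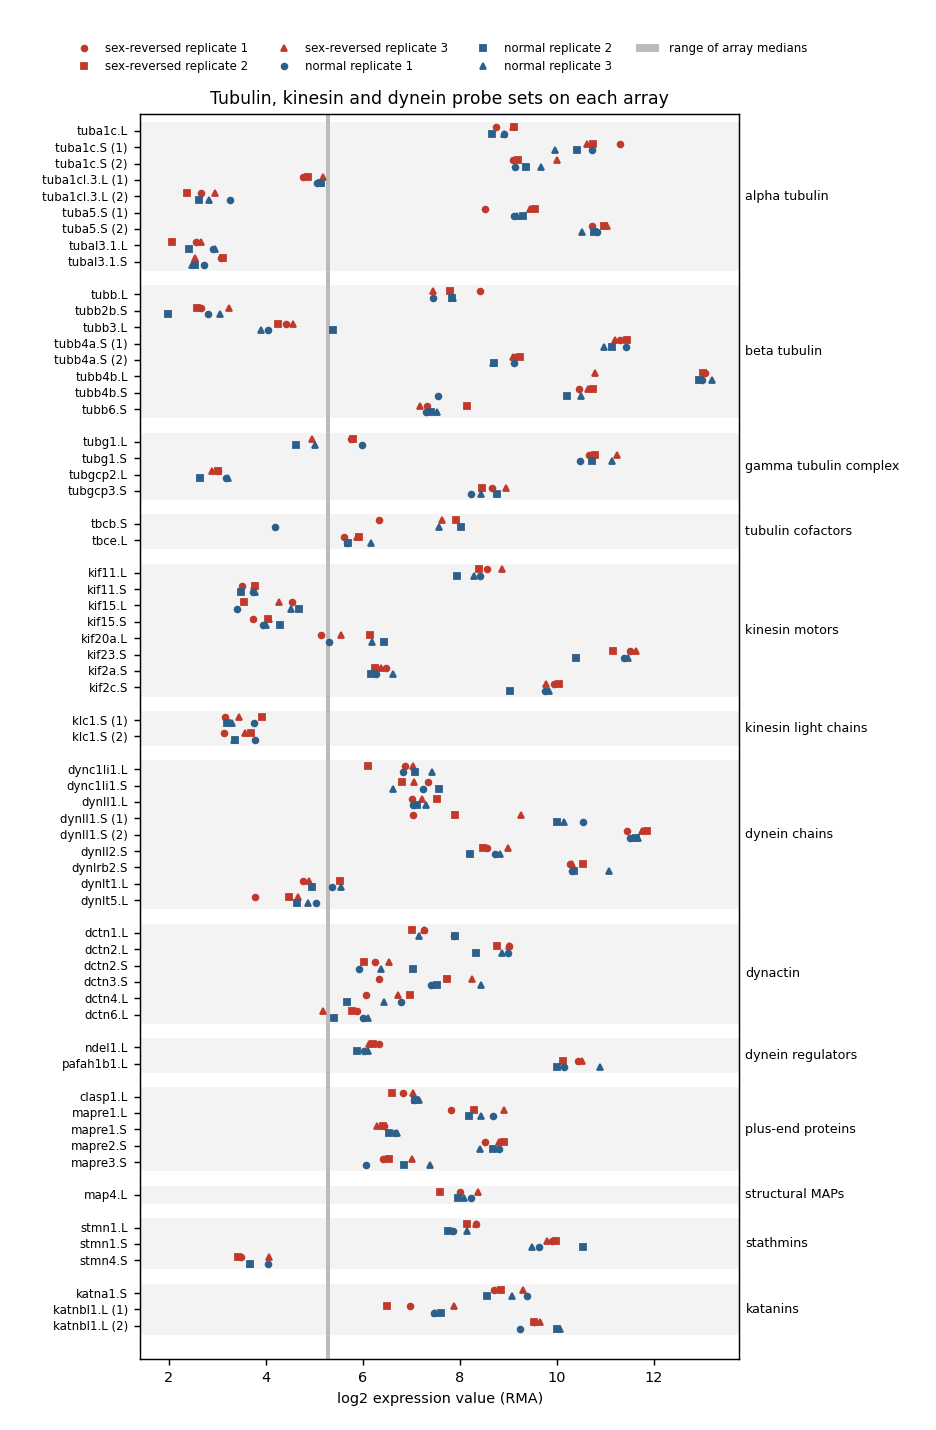
Log2 expression value (horizontal axis) of each of the 62 probe sets on the 3 sex-reversed arrays (red, upper points) and the 3 normal arrays (blue, lower points), grouped by class; the grey band is the range of the array medians, 5.25 to 5.31. Most members lie to the right of the band, and the colours overlap for all but 5 members.

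Alpha tubulin, which pairs with beta tubulin in the tubulin dimer, was represented by 9 probe sets for 6 genes. Their mean levels ran from 2.59 to 10.81. The brightest probe set, the second of tuba5.S and of a kind named for possible cross-hybridisation, read 10.72, 10.98 and 11.03 on sex-reversed arrays and 10.83, 10.77 and 10.52 on normal arrays. The first tuba5.S probe set was dimmer, at a mean level of 9.19, with a difference of -0.03. Both tuba5.S probe sets had groups that overlapped. For tuba1c.S the first probe set read 11.31, 10.74 and 10.62 in sex-reversed testis, against 10.72, 10.41 and 9.95 in normal testis. Its difference was 0.53 (95% interval -0.15 to 1.21; limma adjusted p = 0.997), with the lowest sex-reversed array below the highest normal one. The second tuba1c.S probe set, of the same kind, read 9.09 to 9.997 in sex-reversed and 9.13 to 9.68 in normal testis, a difference of 0.04. The other copy, tuba1c.L, differed by 0.16. The bright alpha tubulin probe sets thus gave differences between -0.03 and 0.53, none beyond the spread between arrays.

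Dim alpha tubulin members were the tuba1cl.3.L and tubal3.1 genes. The first tuba1cl.3.L probe set had a mean level of 5.02, close to the array medians, and the second 2.78. They differed by -0.17 and -0.24. The dimmest member of all, tubal3.1.L, read 2.55, 2.06 and 2.66 on sex-reversed arrays and 2.90, 2.42 and 2.95 on normal arrays. Its S copy was as dim, with a mean level of 2.74. The tubal3.1 copies differed by -0.33 for L and 0.32 for S, opposite in sign and both with intervals that cross 0. Values this low lie near the lowest signal of each array and say little about expression.

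Beta tubulin, the partner of alpha tubulin, was represented by 8 probe sets for 7 genes and held the brightest member. That was tubb4b.L, a beta tubulin that in mammals is abundant in cilia and widely expressed, with a mean level of 12.67 (percentile 99.8). It read 13.06, 13.02 and 10.79 on sex-reversed arrays and 13.00, 12.94 and 13.21 on normal arrays. Sex-reversed replicate 3 was thus low, 2.23 below the median of the other 5 arrays, which lay between 12.94 and 13.21. The difference of -0.76 (95% interval -2.12 to 0.60; limma adjusted p = 0.997) rested on that array and was -0.01 without it. The same array read low for cyp17a1.L, a steroid synthesis enzyme of Leydig cells. One probe set of it lay at 5.17 there, against 11.14 and 10.49 on the other sex-reversed arrays and 9.96 to 11.34 on the normal ones. Whether the readings are linked was not tested.

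The S copy, tubb4b.S, had its low reading on another array. It read 10.46, 10.75 and 10.64 on sex-reversed arrays and 7.55, 10.21 and 10.51 on normal arrays. Normal replicate 1 lay 2.95 below the median of the others, a 7.74-fold gap, and the remaining 5 arrays lay within 10.21 to 10.75. The difference of 1.19 (95% interval -0.47 to 2.85; limma adjusted p = 0.997) was 0.26 without that array. With opposite signs, the L and S copies of tubb4b differed from each other by 1.95 in their differences. Of 815 L and S pairs of probe sets in the whole table, 7 (0.859%), tubb4b among them, lay at least as far apart. This gap rested on 1 low array in each copy, without which the differences were -0.01 for L and 0.26 for S. On neither array was the partner copy low, since tubb4b.S read 10.64 where tubb4b.L was low and tubb4b.L read 13.00 where tubb4b.S was low.

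The remaining beta tubulins had smaller differences. For tubb4a.S the first probe set read 11.30, 11.46 and 11.19 on sex-reversed arrays and 11.43, 11.13 and 10.97 on normal arrays, with a difference of 0.14. The second tubb4a.S probe set, at a mean level of 8.99, differed by 0.33 (95% interval -0.17 to 0.83). The widely expressed tubb.L differed by 0.17 and tubb6.S by 0.15, at mean levels of 7.80 and 7.48. The tubulin of neurons, tubb3.L, read 4.41, 4.25 and 4.56 on sex-reversed arrays and 4.04, 5.38 and 3.90 on normal arrays, below the array medians except on normal replicate 2. The dimmest beta tubulin, tubb2b.S, had a mean level of 2.72, read 1.97 on normal replicate 2 and 2.58 to 3.23 on the other arrays, and differed by 0.21. In all, 6 of 8 beta tubulin probe sets had higher means in sex-reversed testis, with a class median of 0.16, and 0 had groups that did not overlap.

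**Figure D3:**
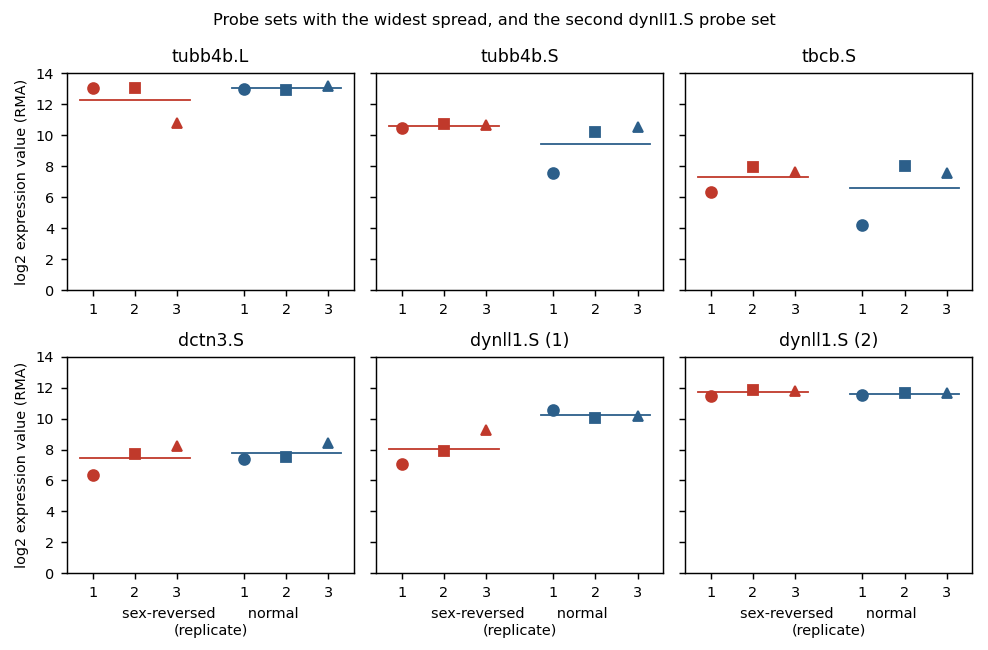
Log2 expression value on each array for the 5 members with the widest range over the 6 arrays, and for the second dynll1.S probe set; red points are sex-reversed and blue points normal arrays, and lines are group means. In tubb4b.L, tubb4b.S and tbcb.S 1 array lies far below the others, while the first dynll1.S probe set is low on all 3 sex-reversed arrays and the second is flat.

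Gamma tubulin and its partners, which seed new microtubules at centrosomes and spindles, were read by 4 probe sets. The S copy of gamma tubulin, tubg1.S, was bright, at 10.67, 10.78 and 11.25 in sex-reversed and 10.48, 10.73 and 11.13 in normal testis. The values overlapped, with a difference of 0.11. Its L copy read 5.76, 5.79 and 4.94 on sex-reversed arrays and 5.97, 4.63 and 5.0 on normal arrays, a difference of 0.29 (95% interval -0.65 to 1.23). Of the ring complex subunits, tubgcp3.S differed by 0.22 at a mean level of 8.58. The subunit tubgcp2.L was near the floor, reading 2.88 to 3.0 in sex-reversed and 2.63 to 3.21 in normal testis. Averaged over the class, relative to each probe set's own mean, the 3 sex-reversed arrays lay at 0.0667 to 0.0836 and the normal arrays at -0.252 to 0.0278. They did not overlap, but by class medians they did, with -0.0225 to 0.135 in sex-reversed and -0.232 to 0.0400 in normal testis.

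The tubulin cofactors fold and assemble the dimer. Of these, tbcb.S, which binds alpha tubulin, had the widest range of any member, on a probe set of a kind that can bind several transcripts. It read 6.33, 7.92 and 7.63 on sex-reversed arrays and 4.18, 8.03 and 7.56 on normal arrays. Normal replicate 1 was the low array, as for tubb4b.S, 3.45 below the median of the others. The difference of 0.70 (95% interval -1.56 to 2.97; limma adjusted p = 0.999) turned to -0.50 without that array. The cofactor tbce.L read 5.6, 5.93 and 5.88 in sex-reversed and 5.68, 5.70 and 6.16 in normal testis. Its difference was -0.04 (95% interval -0.58 to 0.50).

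Readings far from the other arrays were not confined to these genes. An array 2 or more away from the median of the other 5 occurred in 4 of 62 members (6.45%) and in 4.2% of all probe sets. The 4 members were tubb4b.L, tubb4b.S and tbcb.S, each low on 1 array, and the first dynll1.S probe set, described below, which was this low on sex-reversed replicates 1 and 2. Normal replicate 1, which held 2 of them, had 47 probe sets (0.409%) this far below the others, the lowest number of the 6 arrays, and sex-reversed replicate 3 had 67 (0.583%). The highest number was on normal replicate 2, with 111 (0.966%), where 0 members were this low. These counts do not tell why tubb4b and tbcb.S read low on those arrays, which was not tested.

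Kinesin motors were measured by 8 probe sets for 8 symbols, most of them motors of the dividing cell. The brightest was kif23.S, the motor of the central spindle and midbody at cell division, which read 11.52, 11.15 and 11.64 on sex-reversed arrays and 11.38, 10.40 and 11.47 on normal arrays. Its difference was 0.35 (95% interval -0.41 to 1.12), and 0.01 without normal replicate 2, its low array. The microtubule-depolymerising kif2c.S, whose probe set may also bind related transcripts, read 9.94, 10.05 and 9.78 in sex-reversed and 9.75, 9.04 and 9.83 in normal testis, a difference of 0.39. For kif11.L, the motor that pushes spindle poles apart, values were 8.55, 8.40 and 8.86 in sex-reversed and 8.42, 7.94 and 8.30 in normal testis. It differed by 0.39 (95% interval -0.17 to 0.94). All 3 of these motors had their lowest value on normal replicate 2, and their groups overlapped. Without that array kif2c.S differed by 0.14 and kif11.L by 0.25.

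The other kinesins were dimmer and mixed in sign. The S copy of kif11 was the dimmest, with a mean level of 3.67 and values of 3.51 to 3.77 in sex-reversed and 3.49 to 3.78 in normal testis. The cytokinesis motor kif20a.L differed by -0.36 (95% interval -1.25 to 0.52). The depolymerising kif2a.S differed by 0.01, with a narrow 95% interval of -0.49 to 0.52. The spindle motor kif15 lay below the array medians in both copies, with differences of -0.08 for L and -0.14 for S. Of the 8 motors, 5 were on average higher in sex-reversed testis and 3 were lower (class median 0.01). The cargo-binding light chain klc1.S was dim in both of its probe sets, at mean levels of 3.46 and 3.48, and differed by 0.09 and -0.02.

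Cytoplasmic dynein was read by 9 probe sets for 8 symbols, all of light and light intermediate chains, and the heavy chain was not analysed here. The one member with an unadjusted p under 0.05 was here. It was the first of the dynll1.S probe sets, for LC8, a small light chain shared by dynein and many other protein complexes. That probe set read 7.04, 7.90 and 9.25 on sex-reversed arrays and 10.54, 10.01 and 10.15 on normal arrays. Every sex-reversed array lay below every normal one, with the sex-reversed values spread over 2.21 and the normal ones over 0.53. The difference was -2.17 (95% interval -3.38 to -0.96), a 4.5-fold gap of the means. It did not pass in limma, with an unadjusted p of 0.00353 and an adjusted p of 0.997. With 1 array left out the difference ran from -2.76 to -1.66. The adjusted p in limma was 0.0869 without sex-reversed replicate 3, whose value lay nearest the normal ones. It was 0.905 or more with any other array left out.

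The second dynll1.S probe set did not share this pattern. It was brighter, with 11.46, 11.85 and 11.76 on sex-reversed arrays and 11.51, 11.62 and 11.66 on normal arrays. Its difference was 0.09, and the 95% interval of -0.40 to 0.58 lay within 1.5-fold in both directions. The L copy, dynll1.L, read 7.01, 7.52 and 7.22 in sex-reversed and 7.03, 7.11 and 7.31 in normal testis, a difference of 0.10. Within each array, the first minus the second probe set was -4.42, -3.95 and -2.51 in sex-reversed testis, and -0.971, -1.61 and -1.52 in normal testis. The probe sets' differences lay 2.26 apart. Among 777 symbols with several probe sets 6 (0.772%), dynll1.S among them, had a gap at least this large. The RNA of dynll1.S as a whole therefore cannot be called lower in sex-reversed testis from these arrays. Probe positions within the transcript were not used here, so which part of the gene each probe set reads is not given.

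The remaining dynein chains did not pass either. The related light chain dynll2.S differed by 0.09 and dynlrb2.S, a roadblock light chain that also serves ciliary dynein, by -0.21, at mean levels of 8.63 and 10.48. The light intermediate chain copies, which link the motor to cargo, differed by -0.44 for dync1li1.L (95% interval -1.15 to 0.27) and -0.08 for dync1li1.S. The Tctex-type light chain dynlt1.L differed by -0.23. Its relative dynlt5.L, the dimmest of the class, read 3.76, 4.48 and 4.67 on sex-reversed arrays and 5.03, 4.64 and 4.87 on normal arrays. It differed by -0.54 (95% interval -1.21 to 0.13; limma adjusted p = 0.997), and the groups overlapped only in that sex-reversed replicate 3 lay above normal replicate 2. Of the 9 probe sets 6 were on average lower in sex-reversed testis and 3 higher, with a class median of -0.21.

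Dynactin, the complex that loads cargo onto dynein and keeps it on its track, was read by 6 probe sets for 6 symbols. The subunit dctn1.L, the p150-Glued arm that binds microtubules, read 7.25, 7.02 and 7.25 on sex-reversed arrays and 7.88, 7.91 and 7.17 on normal arrays. Its difference was -0.48 (95% interval -1.10 to 0.14), and normal replicate 3 lay among the sex-reversed values. The widest dynactin member was dctn3.S, at 6.33, 7.73 and 8.24 in sex-reversed and 7.39, 7.54 and 8.44 in normal testis. The difference of -0.35 changed to 0.20 once the low sex-reversed replicate 1 was left out. The brightest was dctn2.L, or dynamitin, at 9.005, 8.76 and 9.005 in sex-reversed and 8.998, 8.34 and 8.88 in normal testis. Its copies differed by 0.18 for L and -0.18 for S. The dimmest, dctn6.L, had a mean level of 5.72 and differed by -0.22, while dctn4.L differed by 0.29.

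Of the dynein regulators, pafah1b1.L, or LIS1, which activates dynein and is mutated in human lissencephaly, was bright and level. It read 10.45, 10.13 and 10.52 in sex-reversed and 10.16, 10.01 and 10.89 in normal testis, with a difference of 0.01 (95% interval -0.66 to 0.68). Its partner ndel1.L read 6.32, 6.20 and 6.13 on sex-reversed arrays and 6.02, 5.87 and 6.11 on normal arrays. The groups of ndel1.L lay apart by 0.0141, a separation lost with median centring, and the difference was 0.22 (95% interval -0.25 to 0.68; limma adjusted p = 0.997).

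Plus-end proteins ride the growing tips of microtubules and were read by 5 probe sets, 1 with a higher and 4 with a lower mean in sex-reversed testis. The sex-reversed arrays lay below all normal ones for 2 of them, mapre1.S and clasp1.L (4.26% of all probe sets did), and neither passed the test. The end-binding protein EB1 is encoded by mapre1, whose S copy read 6.43, 6.41 and 6.30 on sex-reversed arrays and 6.67, 6.53 and 6.69 on normal arrays. That is a difference of -0.25, with an interval that crosses 0 (95% interval -0.70 to 0.20; limma adjusted p = 0.997). The brighter L copy, at 7.81 to 8.91 in sex-reversed and 8.18 to 8.68 in normal testis, differed by -0.10 and overlapped. The rescue factor clasp1.L read 6.82, 6.59 and 7.03 in sex-reversed and 7.05, 7.08 and 7.15 in normal testis, a difference of -0.28 (95% interval -0.77 to 0.21). The brightest of the class, mapre2.S, read 8.52, 8.91 and 8.81 in sex-reversed and 8.80, 8.67 and 8.41 in normal testis, and differed by 0.12. The third family member, mapre3.S, differed by -0.12.

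Stathmins bind free tubulin dimers and favour shrinkage of microtubules. The L copy of stmn1 read 8.33, 8.15 and 8.33 on sex-reversed arrays and 7.87, 7.76 and 8.14 on normal arrays. Each sex-reversed array lay above each normal one by at least 0.00769, a separation lost with median centring, with a difference of 0.35 (95% interval -0.14 to 0.84; limma adjusted p = 0.997). The brighter S copy read 9.90, 9.99 and 9.79 in sex-reversed and 9.62, 10.54 and 9.49 in normal testis, a difference of 0.01, so the copies did not share the pattern. The neural stathmin stmn4.S, dim at 3.42 to 4.07 in sex-reversed and 3.67 to 4.04 in normal testis, differed by -0.14.

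The structural protein map4.L, which stabilises microtubules, read 7.99, 7.59 and 8.37 in sex-reversed and 8.23, 7.97 and 8.08 in normal testis, a difference of -0.11. Katanin cuts microtubules. Its catalytic subunit katna1.S read 8.70, 8.86 and 9.30 in sex-reversed and 9.38, 8.56 and 9.07 in normal testis, a difference of -0.05. The katanin-like gene katnbl1.L was read by a dimmer and a brighter probe set. The dimmer gave 6.97, 6.49 and 7.88 in sex-reversed and 7.47, 7.62 and 7.50 in normal testis, a difference of -0.41 (95% interval -1.23 to 0.41). The brighter gave 9.53, 9.53 and 9.64 in sex-reversed and 9.23, 10.002 and 10.07 in normal testis, a difference of -0.20. All 3 probe sets of the class had lower means in sex-reversed testis, and in each the groups overlapped.

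Averaged by class, relative to each probe set's own mean, sex-reversed replicate 3 lay above 0 in every class but beta tubulin. By class medians it lay above 0 in every class, at 0.0268 to 0.369. Each of the other arrays was above 0 in some classes and below it in others. Over all 62 members the mean level relative to each probe set's own mean was -0.122, -0.00331 and 0.0930 on sex-reversed replicates 1 to 3 and -0.0537, -0.0302 and 0.116 on normal replicates 1 to 3. The groups overlapped. The dynein chains lay at -0.422, -0.180 and 0.0364 on sex-reversed arrays and at 0.194, 0.0790 and 0.292 on normal arrays. This separation rested on the first dynll1.S probe set. By class medians the dynein groups overlapped, at -0.194 to 0.0915 in sex-reversed and -0.0208 to 0.298 in normal testis. The beta tubulins lay lowest on normal replicate 1 (-0.332) and on sex-reversed replicate 3 (-0.150), the arrays where a tubb4b copy was low.

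**Figure D4:**
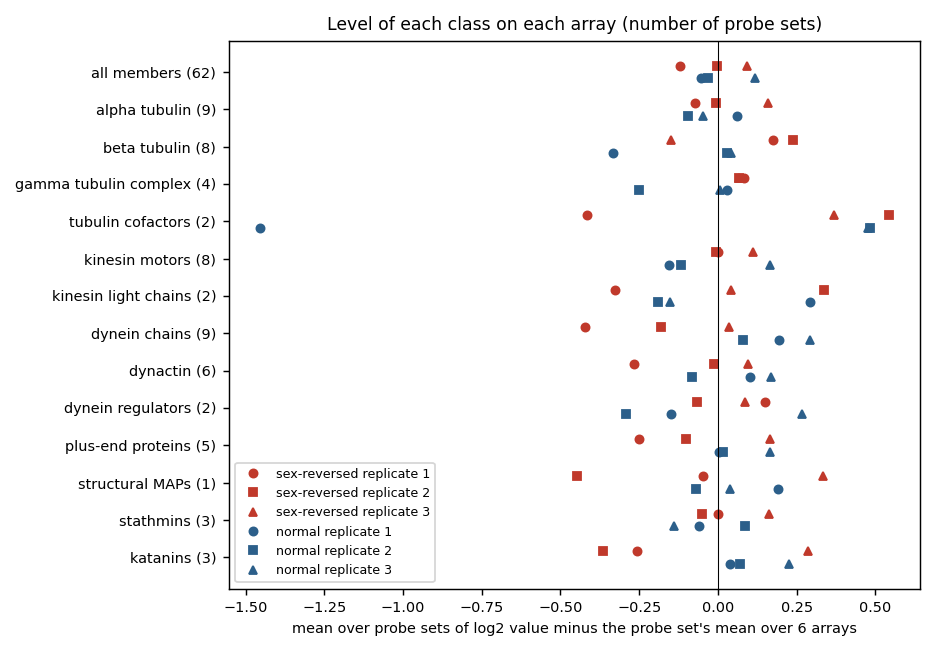
Mean over the probe sets of a class of the log2 value minus the probe set's mean over the 6 arrays (horizontal axis), for each sex-reversed array (red) and normal array (blue), with the number of probe sets in brackets. Most classes lie within 0.5 of 0 and mix the colours, and the low point of the 2 tubulin cofactors is normal replicate 1 at -1.45, set by tbcb.S.

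Copies and duplicate probe sets show how far a single reading can be taken. Both copies were measured for 11 genes, as 13 pairs of probe sets, and 9 pairs had differences of the same sign, beside 56.9% of the 815 pairs in the whole table. In 9 of the 13 pairs the copies' levels lay over 1 apart, where 62% of all pairs did. The widest was tubg1, at mean levels of 5.35 for L and 10.84 for S, followed by kif11, at 8.41 for L and 3.67 for S. Since the probes differ, these gaps describe the probe sets and not the share of each copy in the RNA. Of 7 member symbols with several probe sets, 6 had levels over 1 apart, beside 67.3% of all 777 such symbols, and in all but dynll1.S the differences agreed within 0.49.

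Other microtubule genes, taken from lists of textbook members, also had no call. Of 51 listed spindle and centrosome genes 28 were measured, by 37 probe sets, with 19 higher and 18 lower in sex-reversed testis (median 0.01) and 0 called. All sex-reversed arrays lay above all normal ones for 3 of the 37 (8.11%, beside 5.37% of all probe sets). They lay below all normal ones for 0 of the 37 (0%, beside 4.26%). Those above were the checkpoint gene bub3.L (0.21), ran.S (0.13), a GTPase that guides spindle assembly, and rcc1.L (0.23), its exchange factor. The rcc1.L probe set was dim, at a mean level of 3.96, and the brighter rcc1.S copy did not share the pattern. The rcc1.S probe sets, at mean levels of 8.23 and 5.35, differed by -0.64 and 0.13, with groups that overlapped. Of the 17 chaperonin and prefoldin genes, which fold new tubulin and actin, 9 were measured by 16 probe sets, 8 higher and 8 lower (median -0.002). For 2 of the 16 (12.5%, beside 4.26% of all probe sets) all sex-reversed arrays lay below all normal ones. The reverse held for 0 of the 16 (0%, beside 5.37%). The list of tubulin modification, severing and microtubule-binding genes had 6 of 47 measured, with 5 probe sets higher and 4 lower (median 0.11). In that list 0 of 9 probe sets had groups that did not overlap, in either direction. Axonemal dynein and sperm tail genes had 9 of 29 measured, with 5 probe sets higher and 6 lower (median -0.11). Of these 11 probe sets, 2 had all sex-reversed arrays above all normal ones (18.2%, beside 5.37%), dnali1.S (1.29) and spag6.L (0.54). The reverse held for 1, tekt1.L at -0.43 (9.09%, beside 4.26%). For dnali1.S, normal replicate 1 was low, at 5.54 against 7.32 and 7.99 on the other normal arrays. Without it the dnali1.S difference was 0.58. Cargo adaptors had 2 of 17 measured, ninl.L at 0.28 and rilp.S at 0.07, both higher and with groups that overlapped. With 2 to 37 probe sets per list, the shares without overlap rest on few probe sets. No probe set of these lists passed in limma.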

How the data were processed

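Biotin-labelled RNA of 6 testis samples was read on Affymetrix arrays of a single colour, as the labels' protocols state. The authors deposited log2 values from RMA, per the submitters' processing notes. This method corrects background, quantile-normalizes the arrays and summarises each probe set. The sources used here do not give its version, its options or the chip definition. The log2 scale was read from the range of the values, 1.93 to 14.42. Quantile normalization makes every difference relative to the other genes of the array. Symbols came from the platform annotation, in which 6798 probe sets had exactly 1 symbol, 110 several and 4577 none. No sequences were used.

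All 11485 probe sets were fitted with limma 3.58.1 in R 4.3.3 (lmFit, then eBayes with neither trend nor robust fitting), in a two-sided test of sex-reversed minus normal. P-values were adjusted by Benjamini-Hochberg, with a threshold of 0.05. The step was tested on simulated data. The members and lists were chosen with earlier results of these data known. Values on every array were given for members with an unadjusted p under 0.05, with groups that did not overlap or with the 5 widest ranges. Those at the top or bottom of a class, or with disagreeing probe sets or copies, had these or a range, mean or difference. Other members named are examples of their class. Alternatives were a replicate block, 2 further normalizations, 2 filters on level, 2 variance models, leaving out probe sets of the _x_at and _s_at kinds, which may bind related transcripts, 1 probe set per gene and each array left out. The labels do not say that replicate numbers mark a shared litter or day, so the numbers were not taken as pairs. Same-numbered arrays deviated from their group means with correlations of -0.00684, -0.0247 and 0.139. For arrays with unlike numbers the correlations ran from -0.160 to 0.152. No batch is named in the labels or the table. With 3 arrays per group, the number of arrays limits the precision.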

Additional observations from a re-analysis of the deposited data

How the results depend on the processing

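The count of members called was 0 under all 15 alternatives, and their median difference moved by less than the spread of the list's level between arrays of a group (0.1). Probe sets called in the whole table numbered 2 with median centring and with array weights, 1 with a second quantile normalization, above the median level and without the probe sets named for cross-hybridisation, and 0 to 6 with 1 array left out (6 without sex-reversed replicate 3). None was a member. The replicate block gave 0 calls and 1 member with an unadjusted p under 0.05, and changed no call. With 1 probe set per gene that count was 0, since the brighter dynll1.S probe set was kept, and with 1 array left out it was 1 to 3. Members whose groups did not overlap numbered 3 with median centring, which ended the separation of ndel1.L and stmn1.L, and 8 to 13 with 1 array left out, when fewer arrays make separation easier (17.6% to 20.8% of all probe sets). Of 22 members followed in detail, the sign changed for 2. Besides dynll1.S, these 22 were picked for a low p, separated groups, a larger difference or a wide range. They do not stand for all members. With 1 array left out tbcb.S ran from -0.50 to 1.42 and dctn3.S from -0.76 to 0.20, the first sign change without normal replicate 1 and the second without sex-reversed replicate 1. Over all 62 members, 29 (46.8%) changed sign with some array left out, beside 49.5% of all probe sets. Signal over background was not measured, which limits what the dim members show.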

Other observations

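Among the chaperone genes that fold tubulin, 2 genes had probe sets that differed from each other, though by less than those of dynll1.S; they were noticed after the values were seen. For pdcl3.L, a phosducin-like chaperone partner, the dimmer probe set read 4.02, 4.42 and 4.61 on sex-reversed arrays and 5.35, 4.98 and 5.50 on normal arrays, a difference of -0.93 (95% interval -1.52 to -0.34; limma adjusted p = 0.997). The brighter pdcl3.L probe set differed by 0.07. For the prefoldin subunit gene pfdn5.S the dimmer probe set read 5.25, 5.38 and 6.32 on sex-reversed arrays and 6.45, 6.54 and 6.72 on normal arrays, a difference of -0.92 (95% interval -1.66 to -0.19; limma adjusted p = 0.997). The brighter pfdn5.S probe set differed by 0.09. In both genes all sex-reversed arrays lay below all normal ones in the dimmer probe set, as for 4.26% of all probe sets, and overlapped in the brighter. The gap between probe sets was 0.994 for pdcl3.L and 1.017 for pfdn5.S, beside 2.26 for dynll1.S, and 62 of 777 symbols with several probe sets (7.98%) had a gap of 1 or more.

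Spindle genes held the widest spreads near the members. The checkpoint kinase gene bub1b.L read 4.13, 6.66 and 8.47 on sex-reversed arrays and 3.83, 6.86 and 4.24 on normal arrays. The spindle assembly factor tpx2.L read 5.50, 6.47 and 6.68 on sex-reversed arrays and 7.35, 2.79 and 5.88 on normal arrays, while its brighter S copy ranged from 9.54 to 10.73 over the 6 arrays. Neither gene had groups that stood apart.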
